A study of Mus musculus with 5 samples.

Results

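Alpha intercalated cells are the acid-secreting cells of the kidney collecting duct, and 60 of them were found among 12121 cells of mouse kidney profiled by Drop-seq (0.495%). Drop-seq captures single cells in droplets with barcoded beads and counts each captured mRNA molecule by a unique molecular identifier (UMI) read at the 3′ end, so that a count needs no correction for transcript length. The series holds 5 libraries from wild-type mice of the strain given as C56BL/6N. Microdissection gave 1 library for each of 3 regions (cortex, outer medulla, inner medulla), and 2 more came from intact organs (whole kidney 1, whole kidney 2). Values for single libraries follow that order, called library order. Perfused kidneys were dissociated by a cold-active bacterial protease, and the cells were fixed in methanol and frozen. The labels name no treatment, age, sex or number of animals. The questions addressed are where in the kidney these cells were captured, which genes set them apart from other cells of the same libraries, and how their transcripts differed along the axis from cortex to inner medulla.

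Intercalated cells lie scattered between the principal cells of the collecting duct, which carry the water and sodium channels. The alpha type pumps protons into the urine with a vacuolar H+-ATPase (V-ATPase) in its apical membrane, makes those protons and bicarbonate from carbon dioxide with a cytosolic carbonic anhydrase, and returns the bicarbonate to blood through the basolateral exchanger AE1, the product of Slc4a1. The beta type carries the pump on the opposite side and secretes bicarbonate through pendrin, the product of Slc26a4. Both types depend on the forkhead transcription factor Foxi1, and loss of the pump's B1 or a4 subunit in people causes distal renal tubular acidosis.

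Any barcode with 200 or more detected genes counted as a cell. The members were chosen by the measured UMIs of 7 genes. They had at least 3 UMIs, and at least 0.6% of all their UMIs, from Atp6v1g3 and Atp6v0d2, which encode the G3 and d2 subunits of the pump, together with at least 1 UMI of Slc4a1 or Aqp6 and no UMI of the beta-cell genes Slc26a4, Slc4a9 or Hmx2. These 7 genes are therefore described and not tested. The pump threshold alone held 224 cells: the 60 members, 110 with a beta-cell gene and no Slc4a1 or Aqp6 (called beta-type here), 12 with both kinds and 42 with neither. Aqp6, a water channel of intracellular vesicles, was the only one of the pair in 26 members, Slc4a1 was the only one in 16, and 18 members carried both. The median member had 6.5 pump UMIs, making up 1.29% of its UMIs. Just inside the rule were 9 members with exactly 3 pump UMIs, and 32 members with a single UMI of Slc4a1 or Aqp6. Just outside it, 1 cell had 2 pump UMIs, 11 fell short by share (the highest at 0.528%), and 9 of the 12 with both kinds of gene missed by 1 UMI. Another 13 barcodes met every condition except the 200 genes.

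In the members, Slc4a1 had 8, 7, 17, 10 and 4 UMIs in library order, and Aqp6 had 10, 22, 42, 9 and 2. In barcodes with under 100 genes, which stand for free RNA, Slc4a1 was at 3.47 to 12.4 CPM (UMIs of the gene per 1000000 UMIs of the summed cells) and Aqp6 at 4.48 to 30.9 CPM. The members' Slc4a1 levels were 848 to 2307 CPM, an excess that the rule fixes, since each member had to carry a UMI of Slc4a1 or Aqp6. Atp6v1g3 was at 9605, 11149, 11079.8, 10512 and 12111 CPM in library order, a narrow range that the rule itself partly sets.

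Among all cells captured, the inner medulla library held the largest share of members, a share that also depends on which other cells each library holds. In cortex, members made up 0.358% of cells (11 of 3072, with an exact 95% Clopper-Pearson interval of 0.179 to 0.640). The share was 0.618% for outer medulla (15 of 2428, 0.346 to 1.02) and 2.12% for inner medulla (19 of 898, 1.28 to 3.28). Whole kidney 1 had 0.455% (11 of 2418, 0.227 to 0.813), and whole kidney 2 had 0.121% (4 of 3305, 0.0330 to 0.310). The interval of inner medulla lay above those of all other libraries, while those of cortex, outer medulla and whole kidney 1 overlapped. The balance between the intercalated types ran the same way across the 3 regions. Of alpha plus beta-type cells, members were 25% in cortex (11 of 44, 13.2 to 40.3), 48.4% in the outer (15 of 31, 30.2 to 66.9) and 90.5% in the inner medulla (19 of 21, 69.6 to 98.8). They were 26.2% of these cells for whole kidney 1 (11 of 42, 13.9 to 42.0) and 12.5% for whole kidney 2 (4 of 32, 3.51 to 29.0). These shares leave out cells with both kinds of gene or neither, 2 and 6 cells in inner medulla. Of all cells past the pump threshold, members were 18.6%, 45.5%, 65.5% (45.7 to 82.1), 20.8% and 8% in library order. Principal cells made up a far larger number in inner medulla, 435 of the 797 in the series, against 68 in cortex and 162 in outer medulla. Intervals cover counting error alone, and with 1 library per region there is no test between regions. The intervals of the 2 whole kidney libraries overlapped, from libraries of the same kind. A stricter requirement of 2 UMIs of Slc4a1 or Aqp6 left 0.163%, 0.288%, 1.45%, 0.0827% and 0.0303% in library order, with inner medulla still the highest.

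**Figure D1:**
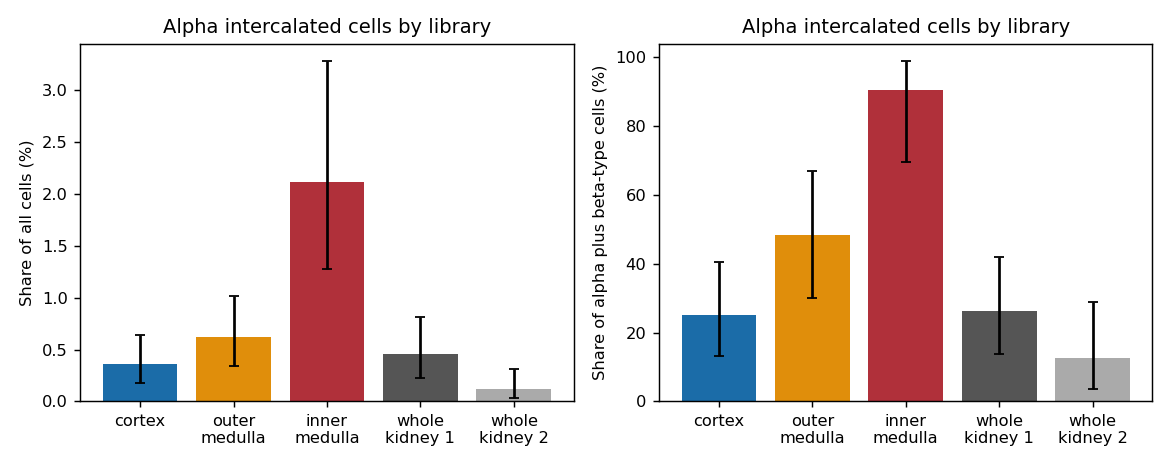
Bars give the percentage of alpha intercalated cells among all cells (left) and among alpha plus beta-type intercalated cells (right) in each library, with exact 95% binomial intervals. Inner medulla stands highest in both panels, at 2.12% and 90.5%.

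The members were shallow cells, at a median of 483.5 UMIs (246 to 1609) and 381.5 genes, against 488 UMIs over all cells. Their sums were 6351, 8252, 11372, 5898 and 1734 UMIs in library order, 33607 in all, so that 3 UMIs correspond to 264 CPM in inner medulla and to 1730.1 CPM in whole kidney 2. Between pairs of libraries 6 cell barcodes were shared, and 0 of them belonged to members. Markers of other cell types were mostly low. All 3 distal convoluted tubule markers and all 3 podocyte markers were at 0 UMIs, endothelial markers had 1 UMI, macrophage markers 2 and thick ascending limb markers 3. The 8 proximal tubule markers, all detected, summed to 3030 to 11967 CPM in the members against 12303 to 50914 CPM in free RNA. The 10 principal cell markers summed to 39 UMIs, with Hsd11b2, Scnn1g and Elf5 at 0, and the 4 connecting tubule markers to 54, of which 47 were Klk1. Thin limb markers had 3 UMIs. In 3 members, 10 or more UMIs came from the markers of another tubule segment: a cortex cell with 54 proximal tubule UMIs, an inner medulla cell with 30, and a whole kidney 1 cell with 37 UMIs of Klk1, a kallikrein of the connecting tubule. Of all cells past the pump threshold, 34 carried such markers at that level, these 3 included. No doublet caller was used, and the part of cell pairs in the results was not tested beyond leaving these 34 cells out.

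Against all other cells, 155 of 5365 tested genes were higher in the members (2.89%) and 171 were lower (3.19%, 6.08% in either direction), by edgeR's quasi-likelihood test on UMI sums per library with Benjamini-Hochberg adjustment over all tested genes. The median log2 fold change over all tested genes was -0.13, and 591 tested genes had no UMI in the members. The higher genes included the pump, ammonia transporters and intercalated-cell transcription factors, and the lower ones included transcripts of the proximal tubule and of principal cells. Without outer medulla the counts were 102 higher and 103 lower, and without whole kidney 1 they were 100 higher and 121 lower. Plain library totals gave 213 higher and 134 lower and shifted the median by 0.28, while a scaling factor for each sparse sum gave 89 higher and 1086 lower and shifted it by -0.995. The labels do not say that libraries came from separate animals, so p-values measure the spread between these libraries.

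The V-ATPase consists of a cytosolic V1 domain, which splits ATP, and a membrane V0 domain, through which protons pass. Of 10 tested V1 genes outside the rule, 7 were higher in the members and none lower (median log2 fold change 1.94 against -0.13 over all tested genes). Atp6v1b1, the B1 subunit of acid-secreting epithelia, had 8, 8, 5, 12 and 2 UMIs in library order. That was 440 to 2035 CPM in the members, against 27.5 to 41.5 CPM in all other cells, and every library of the members lay above every library of the others (log2 fold change 4.74 ± 0.49 SE, adjusted p = 4.19e-19). Atp6v1c2, the C2 subunit, had 3, 8, 19, 3 and 5 UMIs in library order (log2 fold change 4.86 ± 0.51, adjusted p = 6.70e-19). Among subunits that most tissues share, Atp6v1a, the catalytic A subunit, was 4.44-fold higher, Atp6v1e1 3.87-fold, Atp6v1d 3.78-fold and Atp6v1h 6.35-fold, and Atp6v1h had no UMI in whole kidney 2. Atp6v1f was 2.06-fold higher with an adjusted p of 0.0414, and it did not pass in most of the alternatives run and reversed with a scaling factor per sum.

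Of 7 tested V0 genes, 4 were higher and none lower (median log2 fold change 1.58). Atp6v0a4, the kidney a4 subunit, stood at 945, 969, 879, 1017 and 1153 CPM in library order, all above the 43.2 to 182 CPM of the other cells (6.15-fold, log2 fold change 2.62 ± 0.45 SE, adjusted p = 4.59e-07). Atp6ap2, the accessory subunit also called the prorenin receptor, was 4.12-fold higher, Atp6v0e 2.98-fold and Atp6v0b 2.54-fold. With a scaling factor per sum, Atp6ap2, Atp6v0e, Atp6v0b, Atp6v1d and Atp6v1e1 no longer passed. Of 5 tested genes of pump assembly and of the TLDc family, Dmxl1, Ncoa7 and Tbc1d24 were higher, the last resting on 5 UMIs from 4 cells. With 27 UMIs in all other cells, Tbc1d24 passed the filter on low counts only through the members.

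For the B, C and a subunits, the members carried mainly the tissue-restricted paralog. Atp6v1b1 had 35 UMIs against 1 of Atp6v1b2, Atp6v1c2 had 38 against 2 of Atp6v1c1, and Atp6v0a4 had 32 against 0 of Atp6v0a1, Atp6v0a2 and Tcirg1. The E and e subunits stood the other way, with 0 UMIs of the restricted Atp6v1e2 and Atp6v0e2 against 63 of Atp6v1e1 and 77 of Atp6v0e. For the rule genes, whose level the selection fixed, the counts were 362 UMIs of Atp6v1g3 against 5 of Atp6v1g1 and 0 of Atp6v1g2, and 68 of Atp6v0d2 against 2 of Atp6v0d1. In the other cells the B pair stood the other way, at 66.8 to 222 CPM for Atp6v1b2 and 27.5 to 41.5 CPM for Atp6v1b1. Fold changes of Atp6v1b2, Atp6v1c1, Atp6v1g1 and Atp6v0d1 were all below 0 on the log2 scale (-2.66, -1.09, -1.66 and -1.64), and none passed the test.

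**Figure D2:**
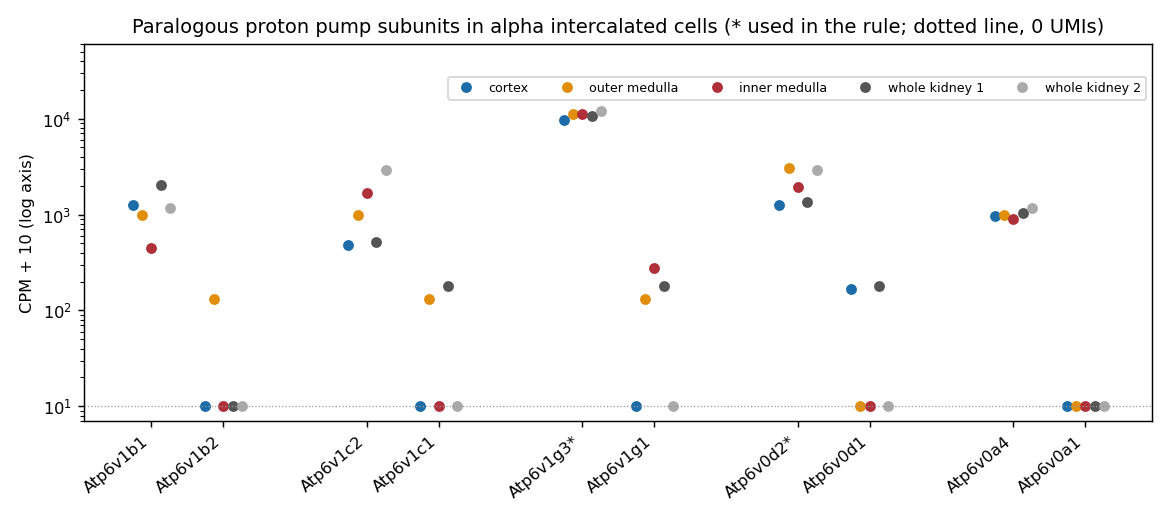
Dots give the level of 5 pairs of paralogous pump subunits in the alpha intercalated cells of each library, as CPM plus 10 on a log axis, with genes of the membership rule starred. In the 3 pairs without a rule gene, Atp6v1b1, Atp6v1c2 and Atp6v0a4 lie above their partners in all 5 libraries, and the order in the starred pairs follows from the selection.

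The promoters of the 3 tested paralogs that rose are shown because these genes moved together. RefSeq's table for GRCm38.p6 held 10 of the 11 pump genes that were higher, and the 250 bases before the transcript start were searched on both strands for the forkhead core TAAACA, which reads TGTTTA on the opposite strand and is in capitals. Genes are read 5′ to 3′ on their own strand, at chr6:83742767-83743016 on the plus strand for Atp6v1b1, chr12:17324731-17324980 on the minus strand for Atp6v1c2 and chr6:38124587-38124836 on the minus strand for Atp6v0a4.
Atp6v1b1: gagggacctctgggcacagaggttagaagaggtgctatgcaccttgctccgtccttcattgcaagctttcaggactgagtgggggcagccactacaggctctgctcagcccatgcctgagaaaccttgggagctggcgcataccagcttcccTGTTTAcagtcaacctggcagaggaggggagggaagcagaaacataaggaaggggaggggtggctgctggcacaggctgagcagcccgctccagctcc
Atp6v1c2: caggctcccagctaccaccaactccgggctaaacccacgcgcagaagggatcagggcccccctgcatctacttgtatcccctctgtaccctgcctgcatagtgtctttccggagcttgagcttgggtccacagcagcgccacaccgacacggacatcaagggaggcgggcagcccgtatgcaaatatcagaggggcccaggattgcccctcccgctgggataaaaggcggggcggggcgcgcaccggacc
Atp6v0a4: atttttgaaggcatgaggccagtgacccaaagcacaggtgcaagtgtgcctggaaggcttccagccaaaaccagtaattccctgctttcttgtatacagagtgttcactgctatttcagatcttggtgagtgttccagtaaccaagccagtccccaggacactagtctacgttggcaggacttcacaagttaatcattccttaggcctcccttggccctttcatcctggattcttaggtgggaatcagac
The motif occurred in 1 of these 10 promoters, that of Atp6v1b1, where it begins 98 bases before the transcript start, and in 12% of all 32851 promoter windows of the same length. A match of 6 letters is a description of the sequence and not a binding site.

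Among acid-base transporters, Rhbg, an ammonia channel of the basolateral membrane, showed the largest fold change of the genes named by size. It had 4, 11, 9, 8 and 5 UMIs in library order (630 to 2884 CPM), and all other cells lay at 16.6 to 39.95 CPM (35.5-fold, log2 fold change 5.15 ± 0.49 SE, adjusted p = 5.76e-23). Rhcg, its apical relative, was 8.51-fold higher over 14 UMIs, 11 of them from cortex and outer medulla. Slc4a4, the sodium bicarbonate cotransporter of the proximal tubule, had 0 UMIs in the members against 9526 in all other cells. Slc26a11, Slc12a7 and Slc4a7 were at 0 UMIs in the members, which allows up to 89.3 CPM for each.

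Of 7 tested carbonic anhydrases, 2 were higher and none lower. Car2, the cytosolic enzyme that supplies protons to the pump, had 43, 48, 70, 50 and 13 UMIs in library order. Its level of 5817 to 8477 CPM in the members exceeded the 579 to 1010.2 CPM of other cells in every library (6.97-fold, log2 fold change 2.80 ± 0.27 SE, adjusted p = 4.21e-22). Car12, a membrane-bound form, was 5.55-fold higher over 18 UMIs, and that call was lost at a pump threshold of 1% of UMIs and with a scaling factor per sum. Car4, the luminal enzyme of the proximal tubule, had 1 UMI and did not pass.

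Of 10 tested genes of ion channels and sodium pumps, 5 were lower. Fxyd2, a small regulatory membrane protein of the tubule, was 2.32-fold lower in all, with 75, 23, 7, 39 and 10 UMIs, and cortex was the library in which members lay above the other cells. There, 45 of the 75 UMIs came from the cell with 54 proximal tubule UMIs. The potassium channel genes Kcnj15 and Kcnj16 had 0 UMIs in the members against 4526 and 4811 in the other cells.

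Of 5 tested intercalated transcription factors, 4 were higher and none lower, and another 4 were too low to test. Foxi1 and Dmrt2 were so rare in other cells that the filter on low counts admitted them only through the members. No conclusion is drawn from the tally. Foxi1 had 3, 6, 8, 4 and 0 UMIs in library order, and the 4 libraries with UMIs stood at 472 to 727 CPM against 6.31 to 9.82 CPM in other cells (59.4-fold, adjusted p = 9.51e-20). Tfcp2l1, a regulator of intercalated and principal cell fates, was higher by 3.46 on the log2 scale over 36 UMIs in 5 of 5 libraries, and Foxp1 by 3.81 over 22 UMIs. Dmrt2 had 0, 3, 8, 1 and 0 UMIs against 26 in all other cells (55.4-fold, adjusted p = 1.05e-09), which places 8 of its 12 UMIs in inner medulla. Hmx2 is a rule gene at 0 by choice, and Hmx3, Esrrb, Tfap2a and Tfap2b were also at 0 UMIs.

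Of 14 listed signalling receptors, 8 were too low to test, and of the 6 tested 5 were higher and none lower. Kit, the receptor of stem cell factor, had 4, 1, 1, 5 and 2 UMIs in library order, and only 17 UMIs in all 12061 other cells (log2 fold change 7.79 ± 0.84 SE, adjusted p = 6.81e-18). Adgrf5, an adhesion receptor that regulates acid secretion, was 31.2-fold higher over 28 UMIs in 5 of 5 libraries (adjusted p = 2.01e-18). Avpr1a, the V1a vasopressin receptor, was 54.1-fold higher over 9 UMIs, P2ry14, a receptor of UDP-glucose, 19.0-fold over 10 UMIs, and Oxgr1, the receptor of alpha-ketoglutarate, 34.3-fold over 7 UMIs. P2ry14 UMIs came from outer medulla (3) and inner medulla (7), and its call was lost at a pump threshold of 1%. Together with Dmrt2, the marker genes Kit and Adgrf5 were the 3 alpha-cell markers outside the rule, and all 3 were higher. Oxgr1, the single beta-cell marker outside the rule that could be tested, was higher too. The 7 markers that all intercalated cells share were higher as well. Kit, Avpr1a, P2ry14, Oxgr1 and Dmrt2 were rare in other cells, so the filter on low counts admitted them only through their UMIs in the members. A lower call was hardly possible for such genes, and no conclusion is drawn from these tallies.

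The remaining genes named by size were enzymes, membrane and host-defence proteins. Pam, which amidates peptide hormones, had 10, 29, 48, 24 and 4 UMIs in library order. It was 15.8-fold higher than in other cells (log2 fold change 3.99 ± 0.35 SE, adjusted p = 1.85e-27). Mme, the peptidase neprilysin, was 29.4-fold higher over 31 UMIs. Defb1, a beta-defensin with antibacterial activity, had 15, 48, 58, 36 and 6 UMIs and was 5.33-fold higher (adjusted p = 1.01e-13). Anxa4, a calcium-dependent membrane-binding protein, was 13.3-fold higher, Tmem213 11.3-fold, the actin regulator Eps8 10.3-fold, the epithelial adhesion protein Epcam 5.42-fold, Pgrmc1 4.28-fold and Rnasek 4.14-fold. All of these were higher in 5 of 5 libraries. Pgrmc1 and Rnasek did not pass with a scaling factor per sum. Chosen after their values were seen, Serpinb9, a granzyme B inhibitor, was 53.4-fold higher over 77 UMIs (6, 21, 37, 13 and 0), and Edn3, the peptide endothelin 3, was 82.4-fold higher over 22 UMIs (3, 8, 8, 3 and 0). Neither had a UMI in whole kidney 2, where members summed to 1734 UMIs.

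**Figure D3:**
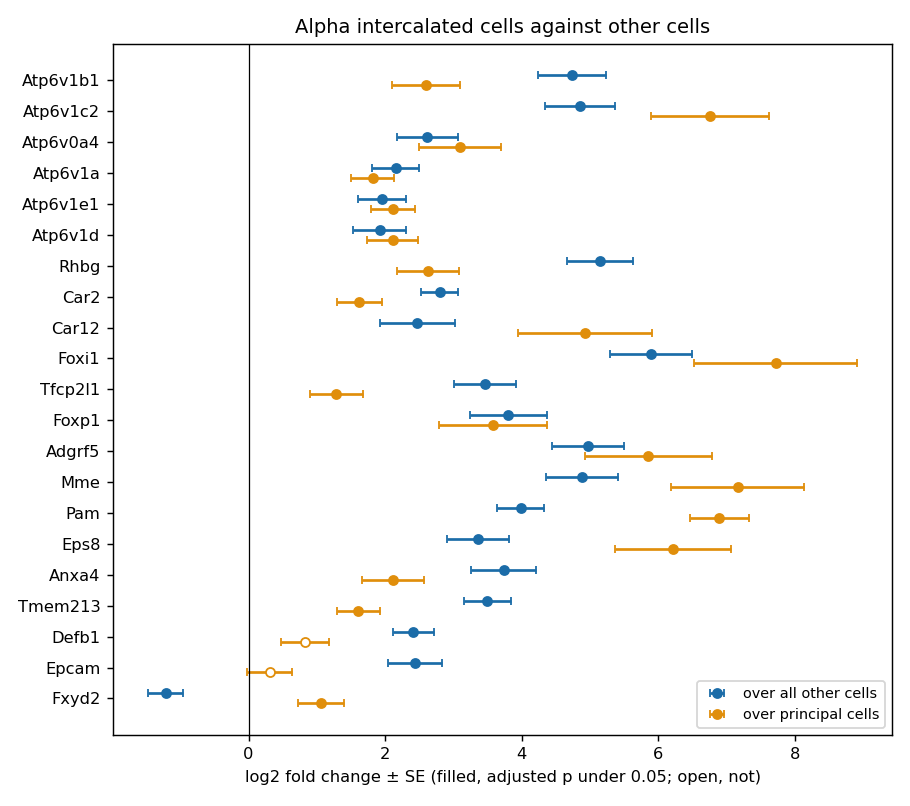
Points give the log2 fold change with its standard error for 21 genes, in alpha intercalated cells over all other cells (blue) and over principal cells (orange), from UMI sums in 5 libraries. Points right of 0 are higher in alpha cells, open points did not pass the adjusted test, and Fxyd2 lies on opposite sides of 0 in the 2 comparisons.

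The 5 largest fitted falls named by the rule were genes without a UMI in the members. Beside Slc4a4 and Kcnj16 these were Ly6a (6284 UMIs in other cells), the oxidase gene Nox4 (5050) and the water channel gene Aqp1 (1788). Proximal tubule transcripts were lower but present, at 7 of 8 markers. Kap, an androgen-regulated protein of that segment, had 65, 13, 23, 20 and 7 UMIs in library order, and was 10.7-fold lower than in other cells (adjusted p = 5.14e-47). Its level in the members, 1575 to 10235 CPM, stood below free RNA (9643 to 35203 CPM) in every library. Principal cell genes were lower too, with 5 of 9 tested below the other cells and none above. Aqp2, the water channel under vasopressin control, had 1, 0, 7, 0 and 0 UMIs (24.4-fold lower, adjusted p = 6.78e-13).

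Few single genes of energy metabolism differed detectably from all other cells at this depth, although most were fitted higher in the members. By edgeR's test, none of 27 tested nuclear genes of oxidative phosphorylation and none of 15 genes of the tricarboxylic acid cycle passed in either direction, with median log2 fold changes of 0.24 and 0.51, and 3 genes of each list had an unadjusted p below 0.05. Log2 fold changes were above 0 for 22 of the 27 and 11 of the 15 genes, against 46% of all tested genes. The lists summed to 1656 and 197 UMIs in the members. In every library both sums were higher in the members than in other cells. They lay at 40626 to 59203 against 24774 to 35700 CPM, and at 3781 to 8188 against 2906 to 4392 CPM. These CPM carry no scaling factor, and the sums were not tested. Of 9 tested glycolytic genes, Pkm, the pyruvate kinase of most tissues, was 3.46-fold higher (adjusted p = 0.0274), a call that was lost without any of cortex, outer medulla, inner medulla or whole kidney 2. No immediate early gene of 7 tested passed, and no osmoprotective gene of 5, with 3 and 1 at an unadjusted p below 0.05.

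Principal cells are the members' neighbours in the same tubule. They were taken as cells with at least 3 UMIs, and at least 1% of UMIs, from Aqp2, Aqp3 and Fxyd4, without a pump UMI, and these 3 genes were not tested. Against them, 66 of 738 tested genes were higher in the members (8.94%) and 65 were lower (8.81%), by edgeR's quasi-likelihood test with the same adjustment. The median log2 fold change over all tested genes was -0.01. Without outer medulla, 43 were higher and 51 lower, DESeq2 called 42 and 52, plain library totals gave 92 and 54, and a factor per sum gave 53 and 84.

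The pump was again among the higher genes, with 6 of 7 tested V1 genes and 3 of 5 V0 genes. Of all 738 tested genes, 8.94% were higher. Another 5 listed V1 genes and 5 V0 genes were too low to test. Atp6v1c2 had 38 UMIs in the members against 4 in 797 principal cells (log2 fold change 6.76 ± 0.87 SE, adjusted p = 8.47e-13). Atp6v0a4 was 8.57-fold higher, Atp6v1b1 6.04-fold, Atp6v1e1 4.34-fold and Atp6v1d 4.31-fold. Pam had 115 UMIs in the members against 12 in principal cells (log2 fold change 6.89 ± 0.43, adjusted p = 1.95e-52), and Mme had 31 against 1. Eps8 was 74.0-fold higher, Rhbg 6.19-fold, the Golgi protein gene Tmbim4 5.76-fold and Anxa4 4.35-fold. Rhcg was not called against principal cells, at 14 UMIs against 157 (log2 fold change -0.60, adjusted p = 0.469). Foxi1 had 21 UMIs against 0, a call that DESeq2 did not make, Adgrf5 28 against 8, and Car12 18 against 4. Atp6v1c2, Pam, Mme, Eps8, Foxi1, Adgrf5 and Car12 were so rare in principal cells that the low-count filter admitted them only through members. A lower call was hardly possible for these genes, and no conclusion is drawn from their direction. Car2 was 3.08-fold higher and higher in 5 of 5 libraries, with principal cells at 425 CPM in inner medulla and 2318 to 3047 CPM elsewhere. Another carbonic anhydrase gene, Car15, was 6.72-fold lower than in principal cells (5 UMIs against 240, adjusted p = 1.42e-05). Defb1 was not called (1.78-fold, adjusted p = 0.0912): the members lay above principal cells in 3 of 5 libraries, and principal cells ranged from 213 CPM in inner medulla to 4189 CPM in cortex.

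A few mitochondrial genes were higher in the members in this comparison. Of 26 tested genes of oxidative phosphorylation 4 were higher and none lower, where 8.94% of all 738 tested genes were higher. These were Cox5b, Cyc1, Ndufa4 and Sdhb, at 1.98-fold, 2.04-fold, 2.07-fold and 3.22-fold. The list's median log2 fold change was 0.65. Sdhb, a subunit of succinate dehydrogenase, was the one of these to pass under every alternative that was run. Cox5b, Cyc1 and Ndufa4 did not pass without outer medulla or with a factor per sum. Fxyd2 was 2.09-fold higher than in principal cells, and this was lost when the 3 members with markers of another segment were left out, and in most other alternatives that left out a library.

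Of the 12 genes named as lower than in principal cells, 9 had no UMI in the members. Hsd11b2, which inactivates glucocorticoids that would occupy the mineralocorticoid receptor, had 0 UMIs against 1247, Calb1 0 against 304, the sodium-regulated kinase gene Sgk1 0 against 257, and the potassium channel gene Kcnj1 0 against 197. Tmem229a, Arhgdib, Tspan8, Rnf186 and Pgam2 were at 0 as well. Nudt4 had 3 UMIs against 1333 (48.6-fold lower, adjusted p = 1.63e-20), and the hormone gene Apela and the water channel gene Aqp4 each had 1. All 6 tested principal cell genes outside the gate were lower, where 8.81% of all tested genes were lower. The members had so few UMIs of these genes that the filter on low counts admitted them only through the principal cells. The same holds for the other genes without a UMI in the members. A higher call was hardly possible for such genes, and no conclusion is drawn from the tally. Avpr2, the V2 vasopressin receptor, had 2 UMIs, both in inner medulla, against 321, and Scnn1b, a subunit of the epithelial sodium channel, had 1 against 95. Principal cells of cortex and whole kidney also carried Calb1 and S100g, genes of the connecting tubule, at 1956 to 2667 and 8595 to 10527 CPM. The part of connecting tubule cells in this comparison was not tested.

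Beta-type intercalated cells share the pump with the members, and the comparison used the 3 libraries with at least 5 cells of each kind: cortex with 11 and 33 cells, outer medulla with 15 and 16, and whole kidney 1 with 11 and 31. Of 136 tested genes, 2 were higher in the members (1.47%) and 11 lower (8.09%, 9.56% in either direction), by edgeR's quasi-likelihood test. Without cortex or without outer medulla there were 0 calls in either direction, and without whole kidney 1 there were 0 higher and 5 lower. DESeq2 called 1 and 5, plain library totals 3 and 7.

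Defb1 was the gene most toward the members. It had 15 UMIs in cortex, 48 in outer medulla and 36 in whole kidney 1, at 2362 to 6104 CPM, against 0 to 1271 CPM in beta-type cells, so that the 3 libraries of each kind did not overlap (5.97-fold, log2 fold change 2.58 ± 0.36 SE, adjusted p = 7.41e-10). Serpinb9 stood at 945, 2545 and 2204 CPM in the members and at 526, 764 and 413 CPM in beta-type cells (3.03-fold, adjusted p = 0.0156), also without overlap. Emb, a partner protein of monocarboxylate transporters, was at 0 UMIs in the members and 62 in beta-type cells. Car15, a membrane-anchored carbonic anhydrase, had 4, 1 and 0 UMIs against a beta-type level of 3025 to 4331 CPM (15.0-fold lower, adjusted p = 3.64e-11). Nudt4 was 16.4-fold lower, Spink8, a protease inhibitor gene, 5.37-fold and Spp1, the gene of osteopontin, 4.64-fold. The groups did not overlap for these 4 genes with UMIs in the members. The filter on low counts admitted Defb1 and Serpinb9 only with their counts in the members. It admitted Emb, Car15 and Nudt4 only with their counts in beta-type cells. The direction of these calls is therefore partly set by the filter.

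Klk1 was 7.56-fold lower in the members, and 42 of its 44 UMIs were from whole kidney 1, 37 of them in the cell with connecting tubule transcripts. Beta-type cells more often carried at least 10 UMIs of another tubule segment's markers. Dropping such cells left 25 of 33, 14 of 16 and 26 of 31 beta-type cells, libraries ordered as above. Of the members it left 10 of 11, 15 of 15 and 10 of 11. The test then called 3 genes higher and 12 lower. How far such cells set the beta-type level of single genes is not given here. Mal (3.17-fold), Cst3 (2.95-fold), Atp6v1c2 (2.71-fold), Bsg (2.50-fold) and Pgrmc1 (2.18-fold) were lower with adjusted p between 0.00907 and 0.0441, and the first 4 lost the call under 6 or more alternatives. Pgrmc1 was not followed through each alternative, but its call was also lost without cortex or without outer medulla, where 0 genes were lower. The other pump genes did not pass: of 6 tested V1 genes 1 was called, Atp6v1c2, and of 3 V0 genes none. Rhbg (2.48-fold, adjusted p = 0.239) and Atp6v1b1 (1.76-fold, adjusted p = 0.409) were higher in 3 of 3 libraries without passing. Car2 was at 0.758 of the beta-type level and Pam at 0.801, neither past the test. Kit had 10 UMIs in the members of these 3 libraries and 0 in beta-type cells, but was too low to be tested.

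**Figure D4:**
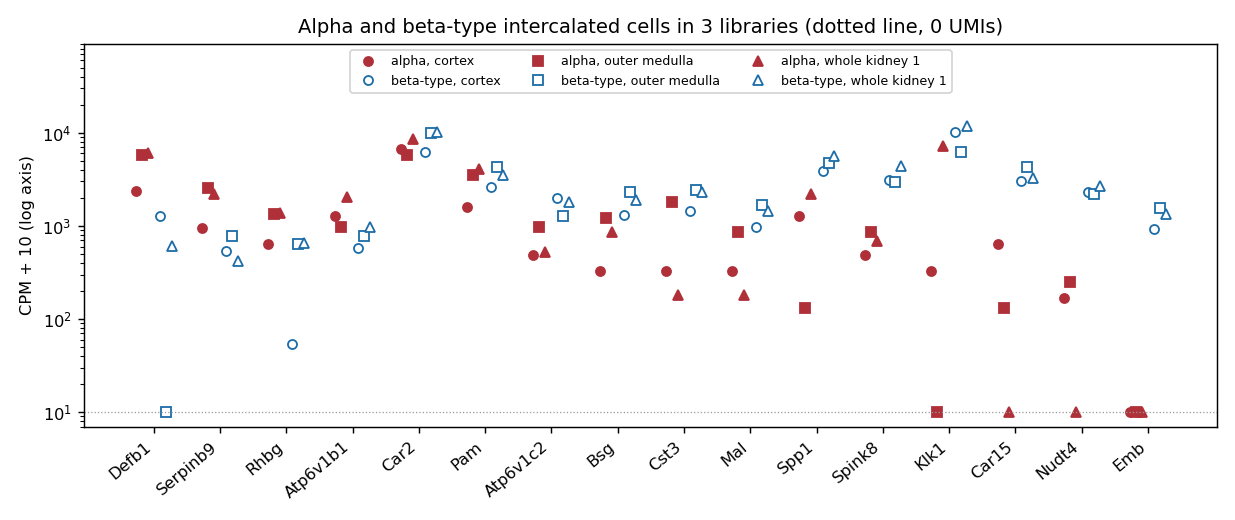
Symbols give the level of 16 genes, as CPM plus 10 on a log axis, in alpha (filled red) and beta-type (open blue) intercalated cells of the 3 libraries compared. Defb1 and Serpinb9 lie higher in alpha cells in all 3 libraries, and Spink8, Car15, Nudt4 and Emb lie lower.

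Along the axis from cortex to inner medulla, the members' levels were set side by side without a test, since each region is 1 library. Of 54 genes with at least 20 UMIs in inner medulla or cortex, 20 had an exact 95% interval of the ratio that left out equality (37%), 10 in each direction, and of 39 genes in outer medulla or cortex there were 10 (25.6%), 6 higher in outer medulla and 4 lower. For Car2 and Rhbg the intervals included equality, at 0.909-fold (0.613 to 1.36) and 1.26-fold (0.351 to 5.58) in inner medulla over cortex. Of the rule genes, whose levels the selection partly sets, Atp6v1g3 was 1.15-fold as high (0.843 to 1.59) and Aqp6 2.35-fold (1.16 to 5.24).

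Defb1 and Pam were lowest in cortex. Defb1 stood at 2362, 5817, 5100.2, 6104 and 3460.2 CPM in library order, which is 2.46-fold higher in outer medulla than in cortex (1.36 to 4.74) and 2.16-fold higher in inner medulla (1.21 to 4.10). Free RNA moved the opposite way, from 1173 CPM in cortex to 433 in inner medulla. Pam stood at 1575 CPM in cortex, 3514 in outer medulla and 4221 in inner medulla (2.68-fold over cortex, 1.34 to 5.94), while other cells of these libraries lay between 118 and 178 CPM. Without the 3 members with markers of another segment, the interval of Defb1 still left out equality (1.07 to 3.94 for inner medulla, 1.13 to 4.27 for outer medulla), and that of Pam included it in both (0.918 to 4.19 for inner medulla). Members of whole kidney 1 stood at 6104 CPM for Defb1 and 4069 for Pam. Serpinb9 was 3.44-fold higher in inner medulla than in cortex (1.44 to 9.98), but was not taken by the rule for named genes because whole kidney 2 had no UMI.

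Several genes that were higher in inner medulla were also high in free RNA there. Tmsb4x had 2 UMIs in cortex, 21 in outer medulla and 30 in inner medulla (8.38-fold, 2.13 to 72.3), and free RNA of inner medulla held 3563 CPM against the members' 2638. Cryab, a small heat-shock protein, had 2, 9 and 24 UMIs, with free RNA of inner medulla at 8586 CPM against 2110.4 in the members. Igfbp7 had 2, 8 and 31 UMIs, with free RNA at 4973 CPM against 2726. For Cdkl1 (1, 8 and 32 UMIs), Epcam (7, 17 and 37) and Itm2b (27, 77 and 125) the members stood above free RNA of inner medulla, at 2814 against 687 CPM, 3254 against 1608, and 10992 against 4652. The share of free RNA in these counts was not tested. In inner medulla, the barcodes that stand for free RNA held endothelial markers at 1831 CPM and macrophage markers at 2375 CPM. Cells outside the members held 408 and 273 CPM there. Whether those barcodes also include small cells was not tested.

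Genes lower in inner medulla than in cortex included transcripts of other tubule segments and mitochondrial genes. Fxyd2 had 75 UMIs in cortex and 7 in inner medulla, and 30 against 5 without the members that carried markers of another segment. Gpx3 had 47 and 12 UMIs, and Kap 65 and 23; without those members Gpx3 had 25 and 0, and Kap 15 and 2. In outer medulla, 71 of the 83 Gpx3 UMIs came from 1 member. The mitochondrial carrier Slc25a4 stood at 3464, 2666, 1231, 5426 and 5190.3 CPM in library order, 2.81-fold lower in inner medulla than in cortex (1.38 to 5.95). Cox7a2 was 2.65-fold lower (1.51 to 4.71), Atp5c1 2.07-fold (1.07 to 4.05), Cox6c 1.89-fold (1.17 to 3.07) and 2010107E04Rik 4.07-fold (1.93 to 9.16). The summed oxidative phosphorylation list lay at 59203 CPM in cortex, 56108 in outer medulla and 40626 in inner medulla in the members, and at 35355, 35700 and 24774 CPM in the other cells of the same libraries. In outer medulla, Malat1, a nuclear RNA, was 3.90-fold lower than in cortex (2.55 to 6.11), with 90 UMIs in cortex, 30 in outer medulla and 59 in inner medulla. At a pump threshold of 1% of UMIs, which left 5 members in cortex, 7 genes of inner medulla and 4 of outer medulla had an interval that left out equality.

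**Figure D5:**
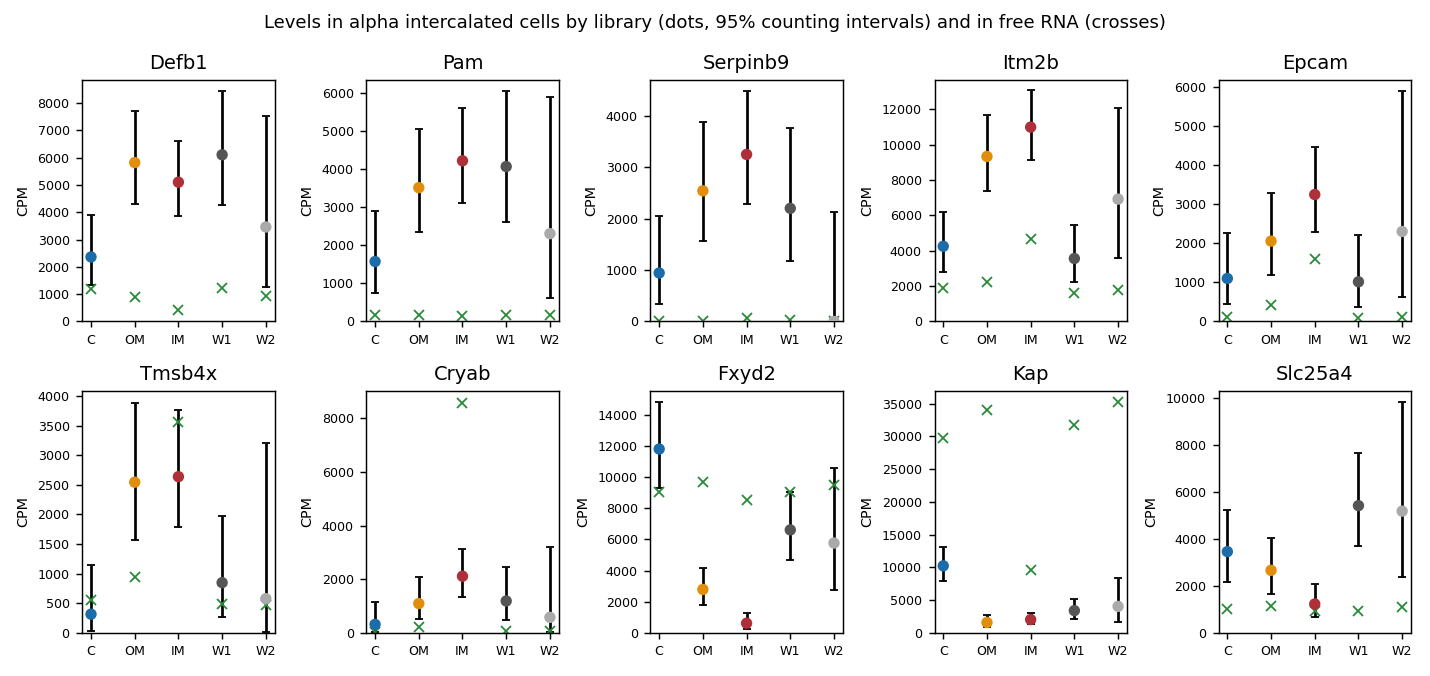
Dots give the level of 10 genes in alpha intercalated cells of cortex (C), outer medulla (OM), inner medulla (IM), whole kidney 1 (W1) and whole kidney 2 (W2), in CPM with exact 95% counting intervals, and crosses give free RNA of the same library. Defb1 in cortex lies at 2362 CPM against 5100.2 in inner medulla, and Slc25a4 lies at 1231 CPM in inner medulla against 3464 in cortex.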

How the data were processed

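Single-cell UMI counts were read from 5 deposited gene-by-barcode tables, 1 per library. The deposited values are whole-number counts per gene and barcode, not normalized, per the file headers and values. Every barcode had at least 50 genes, no mitochondrial gene was listed, and per the submitters' processing notes genome build mm9 and Seurat 2.3.1 were used, with roles not given in the sources used here. Tables held 869732 to 4169677 UMIs in 4035 to 15051 barcodes, and 0 columns belonged to other samples. Cells had at least 200 genes. The members, the gene lists and the comparisons were chosen with earlier results of these data known.

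Cells are not replicates, so counts were summed per library over each kind of cell and tested two-sided with edgeR 4.0.16 (glmQLFit, glmQLFTest; R 4.3.3), with the library as a block because both sums of a pair come from the same library. A gene passed at an adjusted p below 0.05 (Benjamini-Hochberg over all genes tested). To avoid a TMM factor for each sparse sum, 1 factor per kind of cell was taken from sums over libraries, on genes with a mean of at least 300 CPM. This choice and the alternative without mixed cells were made after seeing the data. The fit was tested on simulated data with 200 genes changed. Libraries with fewer than 5 cells of either kind stayed out of the beta-type comparison. Regions have 1 library each: ratios carry exact 95% conditional intervals, levels exact Poisson and shares Clopper-Pearson intervals, all for counting error alone, and UMIs near the floor of 3 limit each value. CPM are counts scaled to 1000000 UMIs of the summed cells.

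Named genes were the 20 largest changes toward the members and the 5 away from them against all other cells, 12 each way against principal cells and up to 10 each way against beta-type cells. They had to pass the test, move the same way in every library and hold at least 30 UMIs (10 for beta-type) on the higher side. Regional genes were up to 8 each way with at least 20 UMIs, an interval that left out equality and a ratio beyond that between the whole kidney libraries. Members of the fixed lists were added. A few genes that these rules take are not reported here. Alternatives were DESeq2 1.42.0, plain totals, TMM per sum, no filter on low counts, no block, each library left out, at least 300 genes, pump share of 1%, Slc4a1 and Aqp6 of at least 2 UMIs, and leaving out the deepest 5% of cells or the cells with at least 10 UMIs of another tubule segment's markers.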

Additional observations from a re-analysis of the deposited data

How the results depend on the processing

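Against all other cells the 155 higher and 171 lower genes became 89 and 1086 with a TMM factor per library sum, and 63 and 108 with no replicate block; leaving out each library in turn gave 100 to 132 higher and 103 to 147 lower. Against principal cells the 66 higher genes became 42 by DESeq2, and with no replicate block 21 were higher and 22 lower; leaving out each library gave 43 to 60 higher and 51 to 60 lower. Against beta-type cells the 2 higher and 11 lower genes became 1 and 5 by DESeq2, 1 and 4 with no replicate block, and 1 and 5 in cells with at least 300 genes. The lower count there was 7 with plain totals, 7 with no filter on low counts and 5 at a pump share of 1%, and leaving out each library gave 0 higher and 0 to 5 lower. The block comes from sums of the same library.

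At a pump share of 1% the genes whose interval left out equality numbered 7 for inner medulla and 4 for outer medulla, and the share of members in cortex was 0.163%. With at least 2 UMIs of Slc4a1 and Aqp6 the shares were 0.163% (cortex), 0.288% (outer medulla), 0.0827% (whole kidney 1) and 0.0303% (whole kidney 2). Against all other cells, Aqp4 reversed under DESeq2 (log2 fold change 0.20) and Atp6v1f with a TMM factor per sum (-0.0814). Of the named genes, 29 of 66 against all other cells, 15 of 48 against principal cells and 12 of 12 against beta-type cells lost the call or reversed under at least 1 alternative, and 8 of 24 regional ratios moved outside their counting interval. The causes were not tested. Depth limits all of this: whole kidney 2 held 4 members and 1734 UMIs.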
